A study of Homo sapiens with 14 samples.

Results

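The expression of 10 genes of cellular iron handling, of 19923 genes in the tables, was followed through 14 RNA-seq libraries of SK-N-BE2 cells, a human neuroblastoma line with amplified MYCN that the labels call BE2. They were taken by gene name: TFRC, STEAP3 and SLC11A2 for uptake, FTL and FTH1 for storage, NCOA4 for ferritin turnover, SLC40A1 for export, and ACO1, IREB2 and FBXL5 for sensing. The cells had been grown in RPMI1640 with heat-inactivated serum, and poly(A) RNA was measured in 7 groups of 2 libraries, which fall into 2 batches. The first batch holds cells of genotype WT given H2O, CoCl2 at 10 µM or CoCl2 at 50 µM. The second holds untreated cells labelled WT, TET2KO 1, TET2KO 2 and TET2KO 3, in which TET2, an enzyme that oxidises 5-methylcytosine, is the gene named as knocked out. The labels give neither the time of exposure to cobalt nor how the knockouts were made. They also do not say whether the 2 libraries of a group came from separate cultures, so p-values measure the spread between these libraries, which may be technical. Counting noise alone gives a chi-square per gene near 1 between 2 libraries. In the first batch it was 1.32 in H2O, 1.23 at 10 µM and 1.47 at 50 µM, so very small p-values there reflect a very small spread. In the second it was 5.12 in WT and 4.7, 3.86 and 5.52 in TET2KO 1, 2 and 3. There the value near 1 does not apply, because the mates of a fragment were mostly counted apart. The cobalt groups were compared with H2O and the TET2KO groups with WT, each within its batch.

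Cells take up iron mainly as transferrin bound to the transferrin receptor, which TFRC encodes. In the endosome STEAP3 reduces the iron and SLC11A2 (DMT1) carries it into the cytosol. Surplus iron is stored in ferritin, a shell of heavy (FTH1) and light (FTL) chains that NCOA4 delivers to the lysosome when iron is needed, and ferroportin (SLC40A1) exports iron from the cell. The iron regulatory proteins IRP1 (ACO1) and IRP2 (IREB2) bind a hairpin, the iron-responsive element, when iron is scarce. Bound in the 3′ UTR of the TFRC mRNA it protects the mRNA from decay, and bound in a 5′ UTR, as in ferritin and ferroportin mRNAs, it blocks translation. FBXL5 is the iron-binding ubiquitin ligase subunit that has IRP2 degraded. Cobalt chloride is widely used to mimic hypoxia, because it stabilises hypoxia-inducible factors, and both the prolyl hydroxylases that mark these factors and the TET enzymes need iron(II).

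The iron-responsive elements are shown because they tell the members apart by the side of the coding sequence on which the regulatory hairpin lies. The search asked for a C, 5 bases, CAGTGN and 5 further bases, with both 5-base arms pairing (G-T pairs allowed), in the protein-coding transcripts of GENCODE 29 (GRCh38). Capitals mark the bulged C and the loop, and each run is written 5′ to 3′ on the gene's strand with 5 bases of flank on either side. A match was held by 4 of the 10 genes: TFRC had 4 sites in its 3′ UTR (in 3 of 4 transcripts), and FTH1 (7 of 8 transcripts), FTL (1 of 1) and SLC40A1 (1 of 5) had 1 site each in the 5′ UTR.
TFRC site 1, chr3:196050980-196051006, minus strand: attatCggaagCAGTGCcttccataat
TFRC site 2, chr3:196050576-196050602, minus strand: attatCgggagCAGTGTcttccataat
TFRC site 3, chr3:196050511-196050537, minus strand: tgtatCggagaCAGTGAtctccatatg
TFRC site 4, chr3:196050464-196050490, minus strand: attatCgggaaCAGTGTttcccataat
FTH1, chr11:61967575-61967601, minus strand: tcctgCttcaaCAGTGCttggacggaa
FTL, chr19:48965336-48965362, plus strand: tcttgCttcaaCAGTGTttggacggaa
SLC40A1, chr2:189580662-189580688, minus strand: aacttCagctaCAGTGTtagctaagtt
The same letters occur in at least 1 protein-coding transcript of 291 of 19669 genes (1.48%). SLC11A2 (18 transcripts scanned), ACO1, IREB2, NCOA4, STEAP3 and FBXL5 held no match, which says only that these letters are not in their transcripts. Outside the 10 genes, CDC14A held 1 match in its 3′ UTR.

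The promoters were searched for ACGTG and GCGTG, the core letters that hypoxia-inducible factors recognise. Of the 10 genes, TFRC, FTL, SLC11A2 and ACO1 were called higher at each cobalt dose. RefSeq windows (GRCh38.p14) of 300 bases, from 250 before to 50 after the start, were found for 9 of the 10 genes (14 windows, none for FTH1) and searched on both strands. ACGTG lay in 3 of the 14 windows, against 21.4% of all 35116 windows, and either motif lay in 8 of the 14, against 48.4%. The 3 genes with ACGTG were TFRC, FTL and FBXL5, and they are shown with both motifs, on either strand, in capitals.
TFRC, bases -130 to -31 from the start, chr3:196082121-196082220, minus strand: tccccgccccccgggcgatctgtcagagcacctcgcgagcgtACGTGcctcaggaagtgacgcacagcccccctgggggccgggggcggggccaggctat
FTL, bases -200 to -1, chr19:48965109-48965308, plus strand: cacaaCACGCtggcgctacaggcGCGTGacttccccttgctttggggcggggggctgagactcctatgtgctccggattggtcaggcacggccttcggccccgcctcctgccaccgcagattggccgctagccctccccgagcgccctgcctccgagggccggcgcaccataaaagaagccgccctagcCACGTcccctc
FBXL5, bases -150 to -91, chr4:15655448-15655507, minus strand: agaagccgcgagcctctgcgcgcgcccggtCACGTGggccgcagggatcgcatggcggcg
In FBXL5, which was called at neither cobalt dose, the 2 matches overlap, 1 on each strand. SLC11A2 and ACO1, called higher at both doses, held GCGTG but no ACGTG. The same was true of IREB2, which was called at neither dose against H2O. A match describes the letters of the window and nothing about binding.

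Depth was 31214128 to 39540111 counts per library in the first batch and 52095024 to 59263320 in the second. Counts from 1 to 10 were even in 39.0% to 42.3% of genes in the first batch and in 77.3% to 80.5% in the second, where the 2 mates of a fragment were therefore mostly counted apart. The adrenergic neuroblastoma markers were high in every library (summed 3613 to 7016 CPM, counts scaled to 1000000 per library), and the erythroid gene HBB was at 0 in all 14. TET2 mRNA was not lower in the libraries labelled TET2KO: it was at 70.8 and 64.8 CPM in WT, 80.4 and 76.6 in TET2KO 1, 87.4 and 91.1 in TET2KO 2, and 68.2 and 75.4 in TET2KO 3. It was called higher in TET2KO 1 and TET2KO 2 and not in TET2KO 3. The log2 differences were 0.21 ± 0.051 (SE), 0.40 ± 0.050 and 0.080 ± 0.051 (edgeR adjusted p = 0.000664, 3.86e-12 and 0.301). Counts over the whole gene do not show whether a small edit lies within it, so these values neither check nor contradict the labels.

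All 10 genes passed the filter on low counts in both batches, in which 13636 and 14061 genes were tested. Levels of different genes are compared per length, as CPM divided by the kilobases of the gene's exons. FTL was the highest of the 10 in all 7 groups (460 ± 7.20 in H2O and 832 ± 7.92 in WT, SD, n = 2) and SLC40A1 the lowest (0.785 ± 0.0507 and 0.639 ± 0.0883). In H2O, TFRC (53.5 ± 0.477) and NCOA4 (52.8 ± 0.593) overlapped, followed by FTH1 (43.8 ± 0.835), IREB2 (21.8 ± 0.202) and FBXL5 (13.1 ± 0.287). STEAP3 (8.29 ± 0.333) and SLC11A2 (8.12 ± 0.140) overlapped, and ACO1 was at 3.15 ± 0.0365. The same order held in WT down to FBXL5, although there NCOA4 (47.8 ± 0.676) overlapped FTH1 (45.4 ± 4.90) and not TFRC. Below FBXL5 came SLC11A2 (8.24 ± 0.121), and then ACO1 (4.52 ± 0.112) and STEAP3 (4.31 ± 0.272), which overlapped. The control groups of the 2 batches differ in batch and culture together, which cannot be told apart, so no level is compared between them.

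The level of FTH1 is understated by an unknown amount. FTH1 lies at chr11:61959718-61967634 (GRCh38, minus strand), and 1267 of its 2004 exon bases (63.2%) are shared with BEST1 on the opposite strand. The counting was run without a strand option, which leaves reads in shared bases unassigned. Over the 737 bases it does not share, the per-length level of FTH1 was 119 ± 2.27 in H2O and 123 ± 13.3 in WT. GENCODE 29 also lists 25 pseudogenes named after FTH1, 16 after FTL and 3 after NCOA4, whose near-identical copies can take or remove reads. The counts of these 3 genes are therefore uncertain as levels.

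Cobalt at 10 µM raised 4 of the 10 genes (TFRC, FTL, SLC11A2 and ACO1) and lowered none, where 22.7% of all tested genes were called, 11.6% as higher and 11.1% as lower. At 50 µM 6 genes rose and 2 fell, where 61.4% of all tested genes were called, 30.4% as higher and 31.1% as lower. The count at 50 µM, 8 of 10, is thus to be read against a background in which most genes changed. The median log2 difference of the 10 genes was 0.038 at 10 µM and 0.13 at 50 µM, against -0.00066 and 0.0020 over all tested genes. Calls are edgeR quasi-likelihood tests with an adjusted p (Benjamini-Hochberg over all tested genes) under 0.05.

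TFRC showed the largest change of the 10. It was at 414 and 420 CPM in the H2O libraries, 884 and 885 at 10 µM, and 1680.2 and 1649 at 50 µM, so that the 3 groups did not overlap. The log2 difference was 1.09 ± 0.016 (SE) at 10 µM and 2.00 ± 0.015 at 50 µM (edgeR adjusted p = 8.73e-121 and 5.16e-165), that is 2.12-fold and 3.99-fold. By size of rise it ranked 29th and 49th of 13636 genes. Of the log2 rise at 50 µM, 54.4% was already there at 10 µM, both measured from the same H2O libraries.

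The other genes of the endosomal uptake route moved by less, and STEAP3 the opposite way. STEAP3, the ferrireductase, was at 38.9 and 36.8 CPM in H2O, 36.5 and 37.3 at 10 µM, and 25.5 and 25.1 at 50 µM. The H2O and 10 µM libraries overlapped and both 50 µM libraries lay below them. It fell by 0.58 ± 0.047 (SE) on the log2 scale at 50 µM (edgeR adjusted p = 3.32e-24), and at 10 µM its difference was -0.036 (adjusted p = 0.601). In bulk RNA, fewer cells that carry a transcript and less of it per cell cannot be told apart. SLC11A2, the endosomal iron transporter, was at 79.3 and 81.3 in H2O, 85.2 and 86.9 at 10 µM, and 91.7 and 93.2 at 50 µM. These 3 groups did not overlap either, but the steps were small. Its log2 rise was 0.10 ± 0.030 at 10 µM and 0.20 ± 0.030 at 50 µM (edgeR adjusted p = 0.00745 and 8.97e-10). The call at 10 µM was lost under DESeq2 (adjusted p = 0.148), with all 14 libraries in the fit (0.181), without H2O replicate 1 (0.126) and without 10 µM replicate 2 (0.142).

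**Figure D1:**
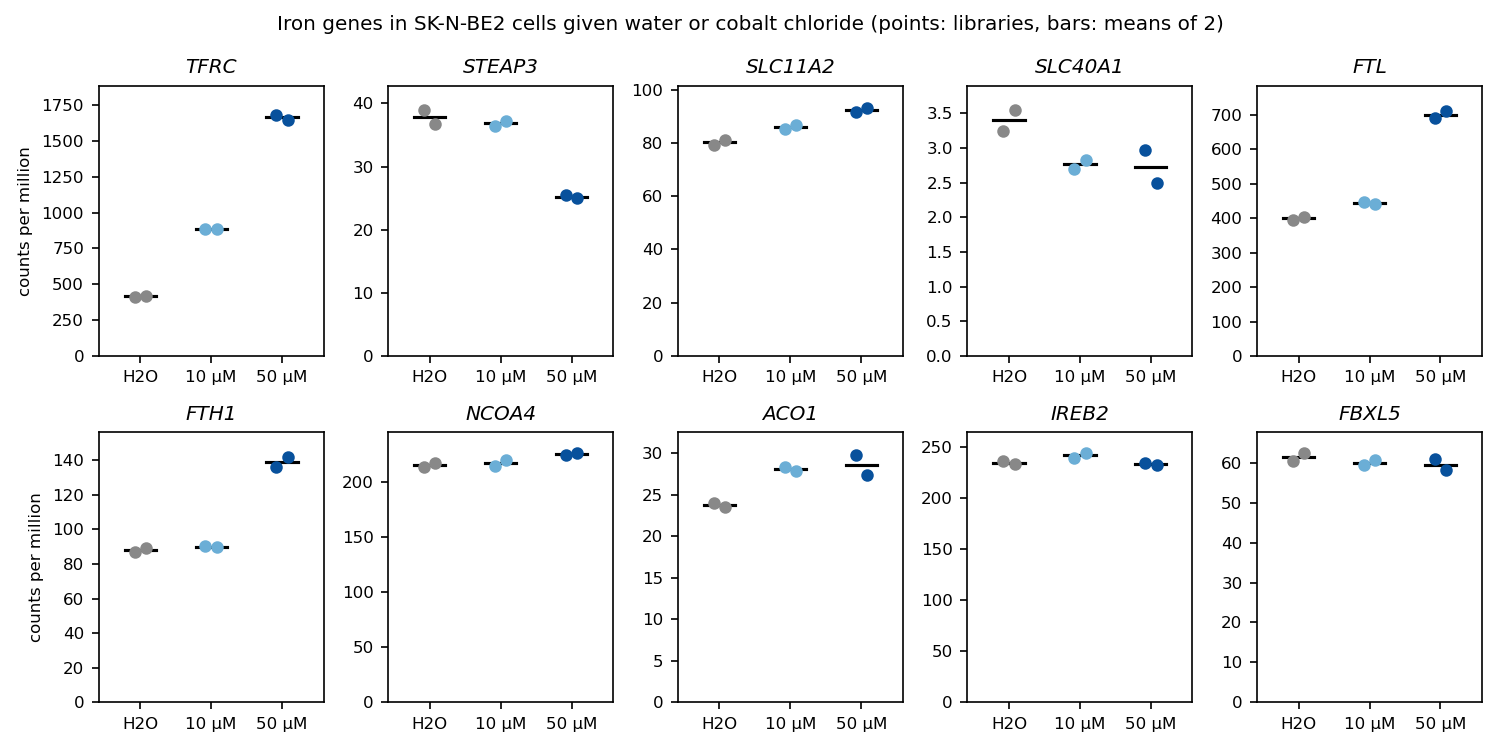
CPM (vertical axis, from 0) of the 10 iron genes in the 6 libraries of the cobalt batch, with 1 point per library and a bar at the mean of each group of 2 (H2O, CoCl2 at 10 µM and at 50 µM). TFRC climbs from 414 and 420 through 884 and 885 to 1680.2 and 1649, FTL and FTH1 step up mainly at 50 µM, and STEAP3 steps down at 50 µM.

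Both ferritin chains rose at 50 µM. FTL was at 396 and 405 CPM in H2O, 448 and 441 at 10 µM, and 692 and 711 at 50 µM. All 3 groups were apart, with most of the change between the doses. The log2 rise was 0.15 ± 0.017 (SE) at 10 µM and 0.81 ± 0.017 at 50 µM (edgeR adjusted p = 4.62e-13 and 4.08e-96), so that 18.6% of it was there at 10 µM. FTH1 was at 86.7 and 89.0 in H2O, 90.1 and 89.7 at 10 µM, and 136 and 142 at 50 µM. Both 50 µM libraries stood above the rest, and the 4 others lay within a few CPM of each other. FTH1 rose by 0.66 ± 0.027 on the log2 scale at 50 µM (edgeR adjusted p = 4.92e-54), while at 10 µM its difference was 0.033 (adjusted p = 0.464). BEST1, which shares its exon bases, was at 1.92 ± 0.180 in H2O, 2.31 ± 0.331 at 10 µM and 3.45 ± 0.285 at 50 µM, and rose by 0.84 at 50 µM (edgeR adjusted p = 1.47e-06). Its part in the FTH1 result was not tested.

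For export and ferritin turnover, the calls at 50 µM did not hold under every alternative. SLC40A1, the exporter, had the fewest counts of the 10, at 3.24 and 3.56 CPM in H2O, 2.71 and 2.83 at 10 µM, and 2.98 and 2.49 at 50 µM. Both H2O libraries were above the other 4. The log2 difference was -0.30 ± 0.14 (SE) at 10 µM (edgeR adjusted p = 0.128), and the gene fell by 0.32 ± 0.15 at 50 µM (0.0476). The call at 50 µM was lost under DESeq2 (adjusted p = 0.277), with all 14 libraries in the fit (0.204), without a filter on low counts (0.0521), without H2O replicate 2 (0.218) and without 50 µM replicate 2 (0.399). NCOA4, the ferritin carrier, was at 214 and 217 in H2O, 214 and 219 at 10 µM, and 225 and 226 at 50 µM. Its rise at 50 µM was 0.064 ± 0.021 on the log2 scale (edgeR adjusted p = 0.00624), or 4.5%. That call was lost under DESeq2 (0.0651), without a filter on low counts (0.0510), with all 14 libraries (0.107) and without H2O replicate 1 (0.0965).

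Of the 3 sensors, ACO1 alone was called against H2O. ACO1 (IRP1) was at 24.0 and 23.6 CPM in H2O, 28.3 and 27.8 at 10 µM, and 29.8 and 27.4 at 50 µM. All 4 cobalt libraries lay above both H2O libraries, and the 2 doses overlapped. The log2 rise was 0.24 ± 0.050 (SE) at 10 µM and 0.26 ± 0.051 at 50 µM (edgeR adjusted p = 6.44e-05 and 2.33e-06), with 91.1% of it there at 10 µM. IREB2 (IRP2) lay between 232 and 244 in all 6 libraries, with log2 differences of 0.043 (adjusted p = 0.120) and -0.0095 (0.710). FBXL5, which has IRP2 degraded, lay between 58.0 and 62.3, with differences of -0.032 (0.566) and -0.047 (0.240), and it was the 1 gene of the 10 called in no comparison of either batch.

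Between the doses, 50 µM against 10 µM, 5 of the 10 genes were higher and 2 lower, where 52.8% of all tested genes were called (26.2% higher and 26.5% lower). TFRC (0.91 ± 0.014 on the log2 scale, SE), FTL (0.66 ± 0.017) and FTH1 (0.63 ± 0.028) rose further and STEAP3 fell by 0.55 ± 0.048 (edgeR adjusted p = 3.19e-114, 9.08e-83, 1.44e-50 and 2.58e-21). The remaining 3 calls were small. SLC11A2 rose by 0.10, NCOA4 by 0.054, and IREB2 fell by 0.052 (edgeR adjusted p = 0.00176, 0.0260 and 0.0261), and all 3 were lost under DESeq2 (0.0505, 0.141 and 0.112) and with all 14 libraries (0.0569, 0.212 and 0.177). IREB2 was also lost on library totals without scaling (0.0724), without 10 µM replicate 2 (0.236) and without 50 µM replicate 2 (0.112), and NCOA4 without a filter on low counts (0.117), without the dispersion floor (0.0514), without 10 µM replicate 1 (0.287) and without 50 µM replicate 2 (0.0984). For ACO1 the difference between the doses was 0.023 ± 0.050 (edgeR adjusted p = 0.720), for SLC40A1 -0.028 ± 0.16 (0.896) and for FBXL5 -0.016 ± 0.035 (0.741).

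The summed levels of 2 marker lists of other cell types were higher in the same cobalt libraries. Macrophage markers, 6 genes of which CD163 was at 0 in all 6 libraries, summed to 5.98 to 6.31 CPM in H2O, 8.49 to 8.83 at 10 µM and 19.4 to 20.1 at 50 µM. Of the 3 tested, 1 was higher and none lower at each dose, with a median log2 difference of -0.32 at 10 µM and 0.31 at 50 µM. Mesenchymal markers (8 genes) summed to 142 to 145, 154 to 159 and 192 to 197, with COL1A2 at 0 in H2O and at 10 µM. Of the 6 tested, 2 were higher and none lower at 10 µM, and 2 were higher and 2 lower at 50 µM, where the median was -0.17, opposite in sign to the change of the sum. MT2A, a metallothionein that metals induce, was at 3.83 and 3.30 in H2O, 5.84 and 5.17 at 10 µM, and 35.7 and 36.0 at 50 µM. The part of these shifts in the changes of the iron genes was not tested.

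In the libraries labelled TET2KO, STEAP3 was called lower and FTH1 higher in each of the 3 comparisons, which share the WT libraries. TET2KO 1 had 2 genes higher and 1 lower against WT, where 17.5% of all tested genes were called (7.79% higher and 9.72% lower). TET2KO 2 had 3 higher and 2 lower, against 26.3% (12.0% and 14.3%), and TET2KO 3 had 1 higher and 3 lower, against 18.9% (8.90% and 9.96%). The mean of the 3 knockouts differed from WT in 2 genes upward and 2 downward, against 18.9% (7.54% and 11.4%). The median log2 difference of the 10 genes was 0.045, 0.011 and -0.076 in TET2KO 1, 2 and 3. Over all tested genes it was -0.0013, 0.00070 and -0.00048.

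STEAP3 showed the largest fall among the 10. It was at 20.5 and 18.8 CPM in WT, 12.9 and 14.7 in TET2KO 1, 15.6 and 15.4 in TET2KO 2, and 12.1 and 12.8 in TET2KO 3. All 6 knockout libraries were below both WT libraries. It fell by 0.51 ± 0.090 (SE), 0.34 ± 0.088 and 0.66 ± 0.092 on the log2 scale (edgeR adjusted p = 1.91e-06, 0.00117 and 7.44e-10), and by 0.50 ± 0.072 in the mean (1.81e-09). Its fall was called under every alternative run for these 4 comparisons, including, for the mean, a fit in which all 6 knockout libraries share 1 coefficient.

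The other uptake genes were close to WT. TFRC was at 673 and 663 CPM in WT, 684 and 673 in TET2KO 1, 636 and 614 in TET2KO 2, and 586 and 617 in TET2KO 3. The TET2KO 1 libraries overlapped WT, and those of TET2KO 2 and 3 lay below it. The log2 difference was 0.022 ± 0.031 (SE) in TET2KO 1 (edgeR adjusted p = 0.703), and TFRC fell by 0.097 ± 0.031 in TET2KO 2 (0.0102), by 0.15 ± 0.031 in TET2KO 3 (3.33e-05) and by 0.075 ± 0.025 in the mean (0.0189). In TET2KO 2 the call was lost on library totals without scaling (adjusted p = 0.108), without WT replicate 1 (0.0596) and without TET2KO 2 replicate 2 (0.224). The call on the mean was lost with 1 coefficient for all knockouts (0.632), without WT replicate 1 (0.196), without TET2KO 2 replicate 2 (0.0801) and without TET2KO 3 replicate 1 (0.0611). SLC11A2 lay between 80.6 and 87.4 in all 8 libraries, with log2 differences of 0.070, 0.015 and 0.039 (edgeR adjusted p = 0.347, 0.855 and 0.642).

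**Figure D2:**
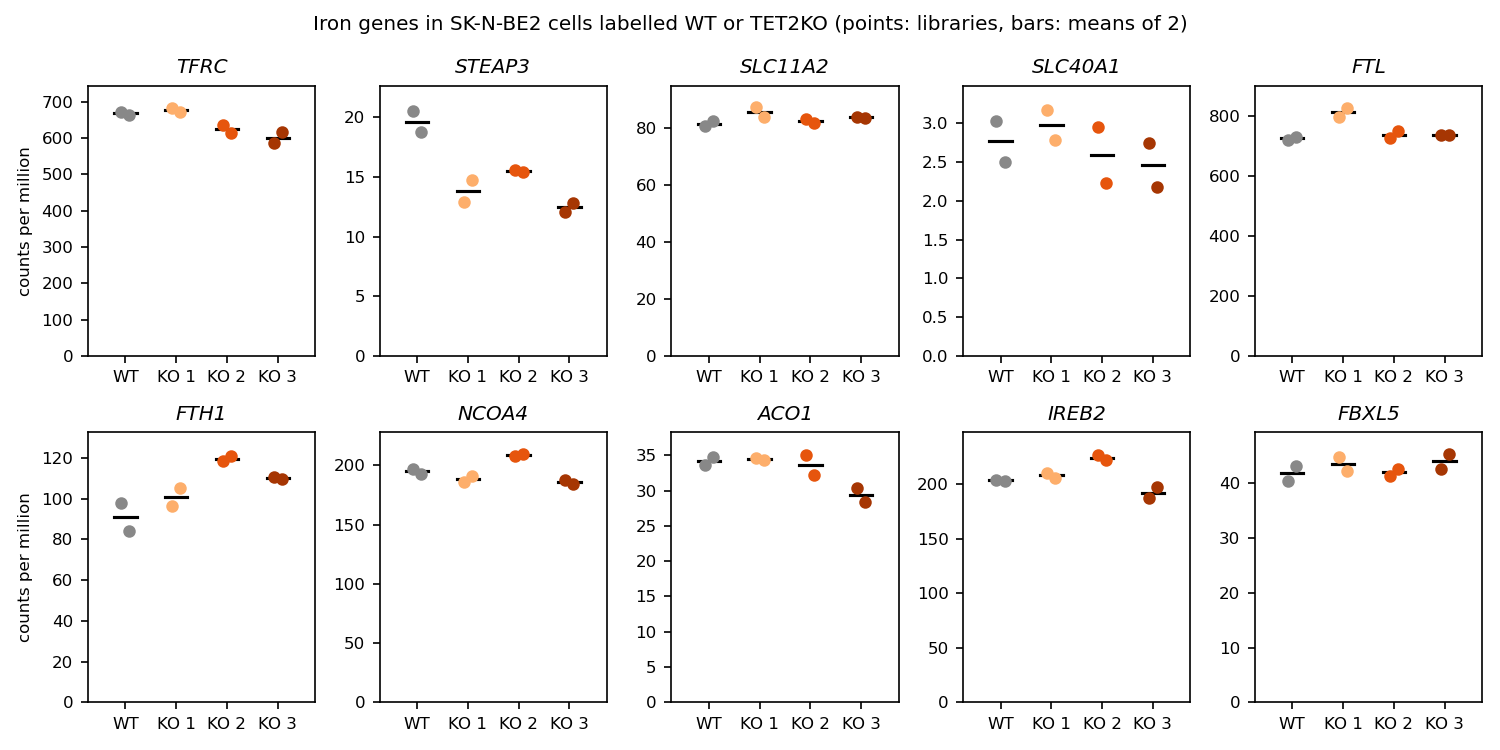
CPM (vertical axis, from 0) of the 10 iron genes in the 8 libraries labelled WT and TET2KO 1, 2 and 3 (KO 1, KO 2 and KO 3), with 1 point per library and a bar at the mean of each group of 2. All 6 knockout points of STEAP3 lie below WT, and the WT points of FTH1, at 97.8 and 83.9, are far apart and overlap KO 1.

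FTH1 was at 97.8 and 83.9 CPM in WT, 96.1 and 105 in TET2KO 1, 118 and 121 in TET2KO 2, and 110.4 and 109.8 in TET2KO 3. WT had the widest spread of the 4 groups and overlapped TET2KO 1 but not the other two. The log2 rise was 0.15 ± 0.047 (SE), 0.40 ± 0.046 and 0.28 ± 0.047 in TET2KO 1, 2 and 3 (edgeR adjusted p = 0.0139, 2.62e-13 and 4.83e-07), and 0.27 ± 0.039 in the mean (1.14e-09). The rise in TET2KO 1 was lost under DESeq2 (adjusted p = 0.0852), without WT replicate 2, where it was 0.044 (0.694), and without TET2KO 1 replicate 2, where it was 0.083 (0.450). The rise of the mean was lost with 1 coefficient for all knockouts (0.168). BEST1 stood at 1.42 and 2.28 in WT and between 1.20 and 2.24 in the knockouts, and was not called in any of them (edgeR adjusted p = 0.973, 0.979 and 0.445).

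FTL rose in TET2KO 1, at 795 and 826 CPM against 720.0 and 729.8 in WT. Neither TET2KO 1 library overlapped WT. The log2 rise was 0.16 ± 0.030 (SE, edgeR adjusted p = 4.62e-06), while TET2KO 2 (724 and 749) differed by 0.023 (0.626) and TET2KO 3 (736 and 735) by 0.020 (0.711). The 3 knockouts differed among themselves in FTL (range 0.14, adjusted p = 8.33e-06). The mean of the 3 was higher by 0.068 ± 0.025 (0.0342), a call lost with 1 coefficient for all knockouts (0.629), without WT replicate 1 (0.268), without WT replicate 2 (0.108), without TET2KO 1 replicate 2 (0.118) and without TET2KO 2 replicate 2 (0.123). SLC40A1 lay between 2.18 and 3.18 in all 8 libraries and was not called (edgeR adjusted p = 0.790, 0.798 and 0.689).

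Of the sensors and NCOA4, ACO1 was called in TET2KO 3 alone, IREB2 and NCOA4 in TET2KO 2 alone, and FBXL5 in none. ACO1 was at 33.6 and 34.8 CPM in WT and 30.3 and 28.4 in TET2KO 3, where it fell by 0.22 ± 0.068 on the log2 scale (SE, edgeR adjusted p = 0.0122). That call was lost without WT replicate 2 (0.104) and without TET2KO 3 replicate 2 (0.150). IREB2 was at 204 and 203 in WT and 227 and 222 in TET2KO 2, where it rose by 0.14 ± 0.037 (edgeR adjusted p = 0.00123). That call was lost without TET2KO 2 replicate 1 (0.0523). NCOA4 was at 197 and 193 in WT and 208 and 210 in TET2KO 2, where it rose by 0.099 ± 0.037 (edgeR adjusted p = 0.0343), a call lost on leaving out WT replicate 1 (0.0783), WT replicate 2 (0.252), TET2KO 2 replicate 1 (0.128) or TET2KO 2 replicate 2 (0.175). In the other two knockouts ACO1 differed by 0.012 and -0.022, IREB2 by 0.033 and -0.084, and NCOA4 by -0.047 and -0.068, none of them called. For IREB2 in TET2KO 3 (-0.084, edgeR adjusted p = 0.104) a fall was called on library totals without scaling (adjusted p = 0.0440), with all 14 libraries in the fit (0.0407) and without TET2KO 3 replicate 2 (0.0496), the opposite direction to its rise in TET2KO 2. FBXL5 lay between 40.4 and 45.3 in all 8 libraries (edgeR adjusted p = 0.594, 0.950 and 0.460).

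The knockouts differed from each other in 7 of the 10 genes, where 37.6% of all tested genes were called in that comparison. The genes were TFRC, FTH1, FTL, ACO1, IREB2, NCOA4 and STEAP3, with ranges between the lowest and the highest knockout of 0.14 to 0.32 on the log2 scale. SLC40A1, SLC11A2 and FBXL5 were not called (edgeR adjusted p = 0.559, 0.636 and 0.652). Markers of other cell states also differed in this batch. Mesenchymal markers (8 genes) summed to 609 to 631 CPM in WT, 191 to 194 in TET2KO 1, 269 to 278 in TET2KO 2 and 169.2 to 169.6 in TET2KO 3. COL1A2 was at 0 in WT and TET2KO 2, and PRRX1 in TET2KO 1 and TET2KO 3. Of the 7 tested, 1 was higher and 4 lower in TET2KO 1, 1 and 5 in TET2KO 2, and 2 and 4 in TET2KO 3. Their median log2 differences were -2.45, -0.65 and -2.53. Endothelial markers (5 genes) summed to 11.4 to 12.0 in WT and to 1.45 to 4.63 in the knockouts. All 5 were tested, with 4, 3 and 4 lower in TET2KO 1, 2 and 3 and none higher. MT2A was at 3.89 and 2.92 CPM in WT, 2.93 and 3.00 in TET2KO 1, 11.9 and 11.6 in TET2KO 2, and 2.43 and 2.34 in TET2KO 3. It was called in TET2KO 2 alone, where it rose by 1.79 ± 0.14 on the log2 scale (SE, edgeR adjusted p = 1.80e-26). The part of these shifts in the differences of STEAP3, FTH1 and the other iron genes was not tested.

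**Figure D3:**
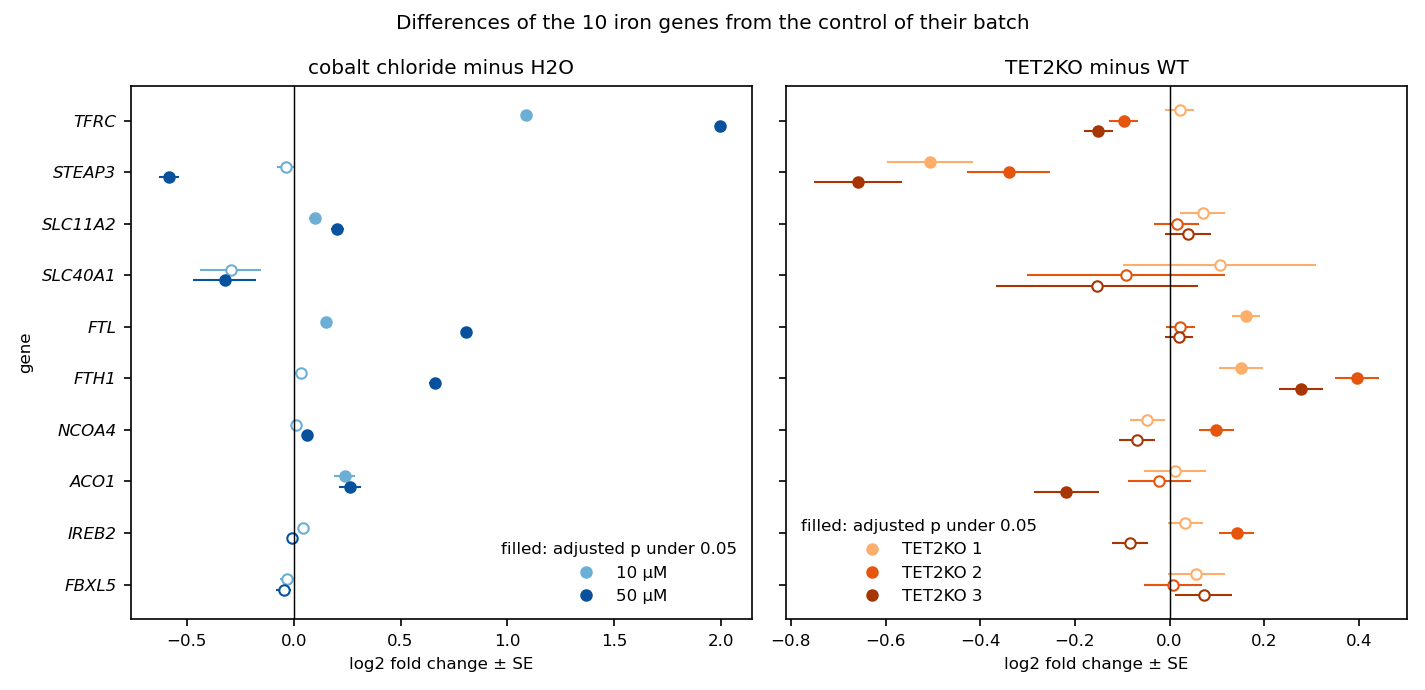
Log2 fold change with its SE (horizontal axis, different ranges in the 2 panels) for each of the 10 iron genes, cobalt chloride against H2O on the left and TET2KO against WT on the right, with filled points for adjusted p under 0.05. TFRC reaches 2.00 at 50 µM, STEAP3 lies left of 0 at 50 µM and in all 3 knockouts, and FTH1 lies right of 0 in the same comparisons.

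The levels of STEAP3, FTH1 and TFRC relative to control are set side by side here, with different control libraries in the 2 batches and the same WT libraries behind all 3 knockouts. At 50 µM STEAP3 was 0.667 times its H2O level, and in TET2KO 1, 2 and 3 it was 0.704, 0.790 and 0.634 times its WT level. FTH1 stood at 1.58 times H2O, and at 1.11, 1.32 and 1.21 times WT, of which the first was not called without WT replicate 2 or under DESeq2. TFRC stood at 3.99 times H2O and at 1.02, 0.935 and 0.901 times WT.

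The ratio of receptor to ferritin transcripts separated the cobalt groups. TFRC over FTH1, per length, was 1.23 and 1.21 in the H2O libraries, 2.53 and 2.54 at 10 µM, and 3.18 and 2.99 at 50 µM, without overlap. Relative to H2O the mean ratio was 2.07 at 10 µM and 2.53 at 50 µM. TFRC over FTL behaved alike, at 1.91 and 2.28 times its H2O mean. The ratio therefore rose by less between the doses than TFRC itself, since both ferritin chains rose there too. In the second batch TFRC over FTH1 was 1.77 and 2.03 in WT, 1.83 and 1.64 in TET2KO 1, 1.38 and 1.31 in TET2KO 2, and 1.37 and 1.45 in TET2KO 3. TET2KO 1 overlapped WT, and the other two did not (0.913, 0.708 and 0.740 times the WT mean). No test was run on these ratios.

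The chains of ferritin shifted against each other. FTH1 over FTL was 0.0950 and 0.0955 in H2O, 0.0873 and 0.0884 at 10 µM, and 0.0853 and 0.0866 at 50 µM. Every cobalt library was lower than both H2O libraries, by a mean factor of 0.922 at 10 µM and 0.902 at 50 µM. In the second batch it was 0.0591 and 0.050 in WT, 0.0525 and 0.0554 in TET2KO 1, 0.0710 and 0.0701 in TET2KO 2, and 0.0652 and 0.0650 in TET2KO 3. TET2KO 2 and TET2KO 3 lay above both WT libraries (1.29 and 1.19 times the WT mean), and TET2KO 1 lay between them (0.990). These ratios inherit the uncertain FTH1 level and are read only as changes within a batch.

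**Figure D4:**
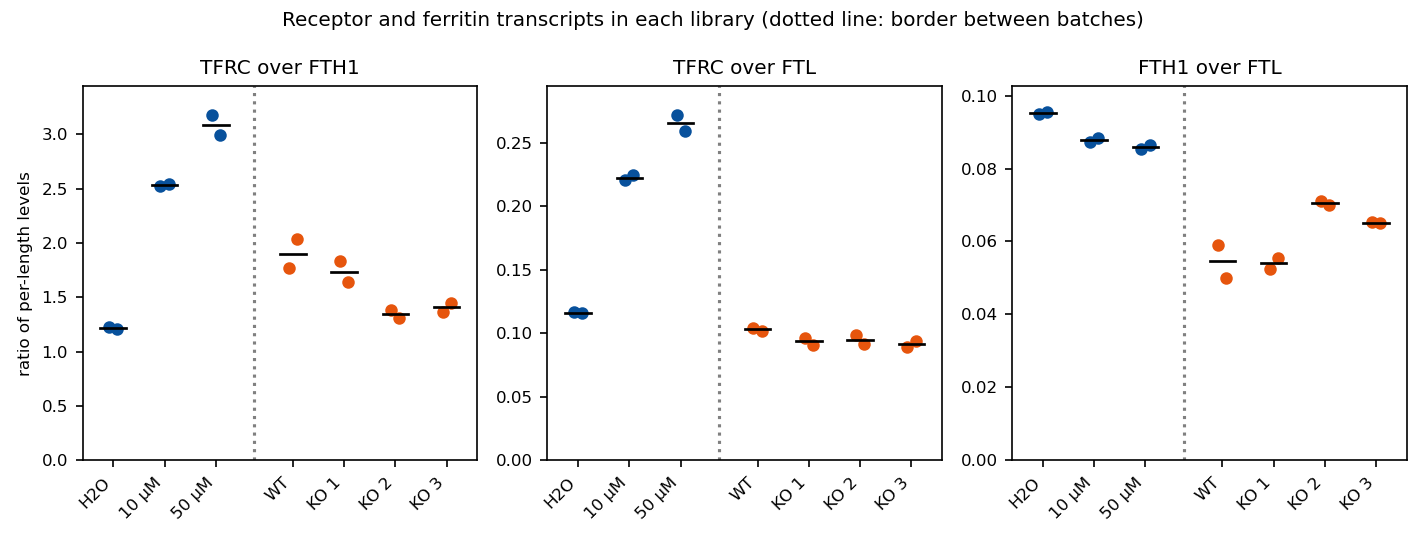
Ratios of per-length levels (vertical axis, from 0) in each of the 14 libraries, TFRC over FTH1, TFRC over FTL and FTH1 over FTL, with a bar at the mean of each group of 2 and a dotted line between the batches. TFRC over FTH1 rises from 1.23 and 1.21 in H2O to 3.18 and 2.99 at 50 µM and is lowest within the second batch in TET2KO 2 and TET2KO 3.

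Other iron genes were followed as 5 lists with 99 genes in all. Their counts are read against the 22.7% of all tested genes called at 10 µM, 61.4% at 50 µM and 52.8% between the doses, and nothing particular to a list is drawn from them. Among transport genes other than the 10 (24 listed, 10 tested in the cobalt batch), 1 rose and none fell at 10 µM, and 2 rose and 4 fell at 50 µM. The risers at 50 µM were SLC22A17 (0.24 ± 0.056 on the log2 scale, SE), a lipocalin receptor, and NEO1 (0.21 ± 0.032), neogenin, and NEO1 was also the riser at 10 µM (0.086). CYBRD1, a plasma-membrane ferrireductase, fell by 0.53 ± 0.13 at 50 µM and TFR2, the other transferrin receptor, fell by 0.31 ± 0.064. TFR2 was at 17.1 and 19.6 CPM in H2O and 14.9 and 14.7 at 50 µM, far below TFRC and in the opposite direction. Between the doses 3 of these genes rose and 4 fell.

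Of the heme genes (22 listed, 19 tested), 2 rose and 2 fell at 10 µM, where 22.7% of all tested genes were called. At 50 µM 11 rose and 5 fell, where 30.4% of all tested genes were higher and 31.1% lower. BLVRB, a biliverdin reductase, went from 2.89 and 3.10 CPM in H2O to 7.23 and 6.66 at 50 µM, a log2 rise of 1.21 ± 0.12 (SE, edgeR adjusted p = 5.22e-18). HMOX1, the inducible heme oxygenase that frees iron from heme, went from 4.39 and 3.98 to 7.30 and 7.81 (0.85 ± 0.11, edgeR adjusted p = 1.81e-12). Both groups were apart for each gene, and neither gene was called at 10 µM. FLVCR1, a heme exporter, fell by 0.34 on the log2 scale at 50 µM. Between the doses 7 rose and 4 fell.

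Genes of mitochondrial iron and iron-sulfur clusters (29 listed, 28 tested) went both ways. At 10 µM 3 rose and 2 fell (22.7% of all tested genes called), at 50 µM 11 rose and 11 fell (61.4%), and between the doses 7 rose and 7 fell (52.8%). The mitochondrial iron importers SLC25A37 (mitoferrin-1, 0.42 ± 0.029 on the log2 scale, SE) and SLC25A28 (mitoferrin-2, 0.26 ± 0.067) rose at 50 µM. CIAPIN1, of cytosolic cluster assembly, fell by 0.30 ± 0.031, and NFS1, the cysteine desulfurase, fell by 0.29 ± 0.049 (edgeR adjusted p = 9.78e-17 and 9.33e-08).

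Among partners of iron sensing and other mRNAs with an iron-responsive element (10 listed and tested), 3 rose and none fell at 10 µM (22.7% of all tested genes called), 3 rose and 3 fell at 50 µM (61.4%), and 2 rose and 3 fell between the doses (52.8%). CDC14A, a phosphatase mRNA whose 3′ UTR held a match, was at 30.0 and 29.7 CPM in H2O and 23.1 and 22.9 at 50 µM, and fell by 0.38 ± 0.050 on the log2 scale (SE, edgeR adjusted p = 2.90e-11). TFRC, which rose, held 4 sites in the 3′ UTR (3 of 4 transcripts), and CDC14A held 1 (1 of 8 transcripts). Counts per gene do not show which transcripts were present, and nothing about the element is drawn from this pair.

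Autophagy genes that ferritin turnover uses (14 listed and tested) rose in 3 cases and fell in 1 at 10 µM (22.7% of all tested genes called), rose in 7 and fell in 4 at 50 µM (61.4%), and rose in 5 and fell in 1 between the doses (52.8%). GABARAPL1 and MAP1LC3B, which coat autophagosomes, rose at 50 µM by 0.60 ± 0.091 and 0.54 ± 0.027 on the log2 scale (SE, edgeR adjusted p = 2.90e-09 and 2.81e-44). ATG7 fell by 0.22 and ATG5 by 0.14. The list medians at 50 µM were -0.032 (transport), 0.095 (heme), -0.031 (mitochondrial), -0.041 (sensing partners) and 0.090 (autophagy), beside 0.0020 over all tested genes.

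The counts of these lists in the libraries labelled TET2KO are read against the share of all tested genes called, 17.5% in TET2KO 1, 26.3% in TET2KO 2, 18.9% in TET2KO 3 and 18.9% for the mean. Of 13 transport genes tested, 1 rose and 2 fell in TET2KO 1, 1 rose in TET2KO 2, and 1 rose and 2 fell in TET2KO 3. BMP6, a ligand that induces hepcidin, was at 2.66 and 3.44 CPM in WT, 0.799 and 1.15 in TET2KO 1, 3.52 and 3.06 in TET2KO 2, and 0.649 and 1.21 in TET2KO 3. It fell by 1.64 in TET2KO 1 and by 1.74 in TET2KO 3 (edgeR adjusted p = 7.56e-08 and 1.65e-08), with TET2KO 2 at the level of WT. CYBRD1 fell by 0.43 and 0.61 in the same knockouts (edgeR adjusted p = 0.0148 and 0.00034), and in the mean of the 3 none of the list rose and 2 fell.

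Of 21 heme genes tested, 1 rose and 1 fell in TET2KO 1, 5 rose and 4 fell in TET2KO 2, 3 rose and none fell in TET2KO 3, and in the mean none rose and 1 fell. HMOX2, the constitutive heme oxygenase, fell by 0.26 on the log2 scale in TET2KO 2. HMOX1, the inducible one, went the other way there, at 8.93 and 9.23 CPM against 5.75 and 5.60 in WT. Of 27 mitochondrial and iron-sulfur genes, 2 rose and 1 fell in TET2KO 1, 3 rose and 2 fell in TET2KO 2, 2 rose and 2 fell in TET2KO 3, and 1 rose and 1 fell in the mean. SLC25A37 fell by 0.21 ± 0.051 in TET2KO 2 and by 0.20 ± 0.051 in TET2KO 3 (edgeR adjusted p = 0.000438 and 0.00147), and CIAPIN1 rose by 0.12 in TET2KO 1 and in TET2KO 3.

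Of the 10 sensing partners and other element mRNAs, 2 rose and 3 fell in TET2KO 1, none rose and 3 fell in TET2KO 2, 3 rose and 3 fell in TET2KO 3, and none rose and 3 fell in the mean. EPAS1 (HIF-2α) had the largest fall of this list in each knockout, and fell by 1.88 on the log2 scale in TET2KO 1, fell by 1.19 in TET2KO 2 and fell by 2.21 in TET2KO 3 (edgeR adjusted p = 5.64e-40, 1.95e-24 and 2.84e-46). HERC2, a ubiquitin ligase, fell by 0.27 in TET2KO 1 and by 0.15 in TET2KO 3 (edgeR adjusted p = 1.36e-08 and 0.00242). The autophagy list had 4 genes higher and none lower in TET2KO 1 and in TET2KO 2, 1 higher and 1 lower in TET2KO 3, and 3 higher and none lower in the mean. GABARAPL1 went from 3.37 and 3.32 CPM in WT to 4.96 and 4.64 in TET2KO 1 and 5.85 and 5.66 in TET2KO 2 (rises of 0.52 and 0.78, edgeR adjusted p = 0.0219 and 5.06e-05), and RB1CC1 rose in all 3, by 0.20, 0.16 and 0.12.

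**Figure D5:**
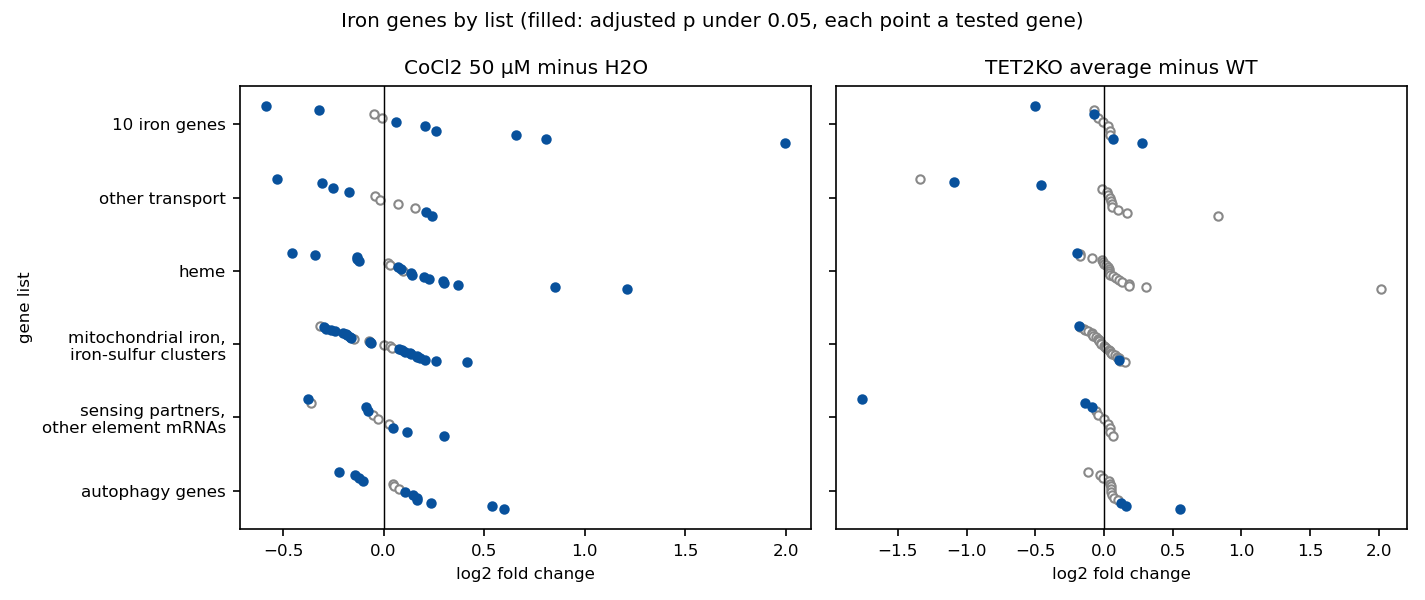
Log2 fold change (horizontal axis, different ranges in the 2 panels) of every tested gene of the 10 and of the 5 other iron lists, for CoCl2 at 50 µM against H2O on the left and for the mean of the 3 TET2KO groups against WT on the right, with filled points for adjusted p under 0.05. TFRC, at 2.00, lies farthest right on the left panel, and EPAS1, in the list of sensing partners, lies farthest left on the right panel.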

How the data were processed

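Read counts per gene name were deposited for 14 libraries. Per the file headers the authors counted with featureCounts (1.5.3 in the first batch, 2.0.5 in the second) over exons of the GENCODE 33 protein-coding annotation, without a strand option or a multi-mapping option. Per the submitters' processing notes, reads were trimmed with Trimmomatic 0.36 and aligned with STAR 2.6.1d to GRCh38/hg38.

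Groups came from the labels. Each batch was fitted alone with edgeR 4.0.16 (R 4.3.3) on the deposited counts: filterByExpr, TMM scaling, quasi-likelihood test with robust estimation and a dispersion of at least 0.0001, p-values adjusted (Benjamini-Hochberg) over all genes tested, called under 0.05. The estimated dispersion was 7.66e-05 in the first batch, below that floor, and 0.000463 in the second. TMM assumes that rises and falls balance, and most genes were called at 50 µM. CPM values use TMM-scaled totals. With 2 libraries a group, replicate numbers pair nothing in the labels, and the correlations of same-numbered libraries' deviations ran from -0.066 to 0.040, so no pairing was used. The test was also run on simulated counts, drawn independently and, for the first batch, at a dispersion above the estimate. They do not reproduce mates counted apart, and nothing about these data is drawn from them. The alternatives tried were other scalings and filters, DESeq2 1.42.0, all 14 libraries in 1 fit, and leaving out libraries.

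The 10 genes and the 5 lists were chosen with earlier results of these data known. Named genes are the 10, the 2 largest called rises and falls of a list in a comparison, TET2, EPAS1 and MT2A. BEST1 was added because its exons overlap FTH1. TFR2 and CDC42BPA are named from their lists, and HMOX1 in TET2KO 2 is given beside HMOX2. Some genes that this rule selects are not reported here.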

Additional observations from a re-analysis of the deposited data

Results flagged for a closer look

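For 7 of the 10 genes the difference from WT was not the same in the 3 knockouts by the test of the difference itself (edgeR quasi-likelihood test among TET2KO 1, 2 and 3). Between the lowest and the highest knockout the log2 range was 0.17 for TFRC (adjusted p = 1.86e-06), 0.25 for FTH1 (1.40e-05) and 0.14 for FTL (8.33e-06). It was 0.23 for ACO1 (0.00677), 0.23 for IREB2 (4.11e-07) and 0.17 for NCOA4 (7.38e-05), and 0.32 for STEAP3 (0.0173). STEAP3 was lowest in TET2KO 3 and nearest to WT in TET2KO 2, while FTH1 was highest in TET2KO 2. The range of STEAP3 lost its call without TET2KO 2 replicate 1 (adjusted p = 0.102), without TET2KO 2 replicate 2 (0.0734) and without TET2KO 3 replicate 1 (0.141), and that of ACO1 without TET2KO 3 replicate 2 (0.165). Each knockout number is 1 group of 2 libraries, so a difference between knockouts and a difference between cultures cannot be told apart.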

How the results depend on the processing

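Over the 80 results of a gene in a comparison, 1129 of 1210 alternative values kept their direction and their side of the threshold, 54 lost the call, 3 gained it and 24 changed sign, and 49 results were the same throughout. The calls of TFRC, FTL and ACO1 at both cobalt doses, of FTH1 and STEAP3 at 50 µM, of STEAP3 in each knockout and of FTH1 in TET2KO 2 and 3 were among those that were the same throughout. The number of genes called at 10 µM was 1066 under DESeq2 and 796 with all 14 libraries, and 1860 to 2258 on leaving out 1 library, and between the doses 4758 and 4674, with 4 of the 10 genes under either. On leaving out 1 library the count was 1375 to 1920 in TET2KO 1, 2406 to 2828 in TET2KO 2, 1568 to 2390 in TET2KO 3 and 1587 to 2703 for the mean, with 3 to 4 of the 10 genes in TET2KO 2 and 2 to 4 for the mean. With 1 coefficient for all knockouts, which puts the differences between them into the spread, 256 genes and 1 of the 10 (STEAP3) were called for the mean. Every sign change was of a gene not called in either setting. On library totals without scaling, NCOA4 differed by -0.0042 at 10 µM and 0.00035 in the mean of the knockouts, and ACO1 by 0.012 in TET2KO 2. On leaving out 1 library, the log2 difference crossed 0 for these genes. At 10 µM it ran from -0.0091 to 0.027 for NCOA4 and -0.078 to 0.0046 for STEAP3. Between the doses it ran from -0.15 to 0.10 for SLC40A1, -0.034 to 0.085 for ACO1 and -0.050 to 0.020 for FBXL5. In TET2KO 1 it ran from -0.030 to 0.25 for SLC40A1 and -0.011 to 0.037 for ACO1. In TET2KO 2 it ran from -0.0022 to 0.047 for FTL, -0.31 to 0.098 for SLC40A1, -0.0050 to 0.026 for SLC11A2, -0.083 to 0.036 for ACO1 and -0.043 to 0.046 for FBXL5. In the mean it ran from -0.19 to 0.10 for SLC40A1 and -0.023 to 0.0081 for NCOA4. In CPM instead of per length, 2 of the 10 genes held the same rank in H2O and 5 in WT, since gene length enters. With the replicate number as a block, 2968 genes were called at 10 µM, 8303 at 50 µM, 2228, 3502 and 2458 in TET2KO 1, 2 and 3, and FTL lost its call for the mean (edgeR adjusted p = 0.0526); no other call of the 10 genes changed, and the numbers share no source in the labels. A group left with 1 library is assumed to vary like the other groups of its fit. The cause of the other changes was not tested. Depth limits SLC40A1 most, with SEs of 0.14 to 0.21 on the log2 scale against control.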
